A study of Homo sapiens with 24 samples.

Results

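The peaks described here are stretches of RNA that were crosslinked to Ago2 and that hold a 7-nucleotide match to the seed of miR-27 or of miR-23, as listed by the authors in their peak table. Members were taken from that list of matches alone, whatever the transcript region, and the rule uses no measured value. Of 24041 peaks in 6088 genes, 416 peaks in 358 genes met the rule. The miR-27 seed was listed in 224 peaks (211 genes), the miR-23 seed in 196 peaks (169 genes), and 4 peaks listed both.

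The cells were 293S, a line derived from human embryonic kidney, either untreated or treated with sodium arsenite, a thiol-reactive stressor, at 1 mM for 30 min. In CLIP, RNA is crosslinked to a protein and recovered with it, here by an antibody to Ago2, the Argonaute that holds miRNAs on their targets. CLIP libraries were made from 4 biological replicates of each treatment. A second set of CLIP libraries, cut from a band called LO in the labels, measured the Ago2-bound miRNAs, again with 4 replicates of each treatment, and the RNA-seq libraries of the same cells were not analysed here. All groups share the cell line, the antibody and the growth conditions. Both tables pool the replicates into a single value for each peak or miRNA. Without replicate values there is no standard deviation, no test and no known depth, and differences between groups of peaks below are descriptions. Of 6 genes fixed as markers of this line, 3 had an Ago2 peak, and of 10 markers of blood, liver, muscle and endothelium none had one.

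miR-23 and miR-27 are made together from a pair of gene clusters that also encode miR-24, one with miR-23b, miR-27b and miR-24-1 and the other with miR-23a, miR-27a and miR-24-2. A miRNA guides Argonaute to an mRNA mainly through its seed, the bases from the second to the eighth, and a paired site usually lowers the stability or translation of that mRNA. miR-27 is known for targets in fat cell differentiation, lipid metabolism and receptor tyrosine kinase signalling, among them the RAS pathway inhibitor SPRY2. miR-23 is known for repressing regulators of apoptosis and NF-kB signalling.

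The mature sequences show how close both seeds are, which matters for what a listed match can tell apart. They are given 5′ to 3′ from RefSeq (build GRCh38.p14), with the seed, bases 2 to 8, in capitals.
hsa-miR-27a-3p: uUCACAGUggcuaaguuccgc
hsa-miR-27b-3p: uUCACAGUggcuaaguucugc
hsa-miR-23a-3p: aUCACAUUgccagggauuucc
hsa-miR-23b-3p: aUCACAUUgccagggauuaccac
hsa-miR-23c: aUCACAUUgccagugauuaccc
Counted from 1 at the 5′ end, miR-27a and miR-27b differ only by C19U, far from the seed, and miR-23a and miR-23b by U19A over the 21 bases that both have. Their peaks therefore cannot be divided between the a and b forms. Within the first 8 bases, miR-27a and miR-23a differ by U1A and G7U, so that the seeds themselves differ at 1 base. The sites paired to bases 2 to 8 are ACUGUGA for miR-27 and AAUGUGA for miR-23. The authors also name miR-130a-5p in the miR-23 family. Its RefSeq sequence has another seed at bases 2 to 8, and holds the bases of the miR-23 seed, UCACAUU, from base 8 on. The miRBase 18 sequence behind the authors' name was not examined.
hsa-miR-130a-5p: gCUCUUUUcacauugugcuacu
Of the 133 miRNAs that the authors name in their 50 families, 113 were matched to a RefSeq sequence. In 44 of the 46 families with a sequence, all matched members share bases 2 to 8, and the miR-23 family is 1 of the other 2.

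The 2 families were bound to Ago2 in very unequal amounts. The values are the authors' means of normalized counts over the replicates. In the authors' deposited table miR-27a-3p ranked number 9 of 1213 entries, and its mean was 769534 in untreated and 733999 in treated cells. For miR-27b-3p the authors' deposited table gave 97552 and 108501. In the same order, the authors' deposited table gave 15308 and 15227 for miR-23b-3p and 6349 and 7042 for miR-23a-3p. miR-23c, the form that is not part of either cluster, had 23.6 and 33.9, and miR-130a-5p had 30.3 and 22.1, in the authors' deposited table. The summed means of miR-27a and b were 40.0 times those of miR-23a, b and c untreated and 37.8 times with arsenite, computed from the authors' deposited table, although both seeds marked similar numbers of peaks. Of all mature miRNA signal, miR-27 held 4.77% and miR-23 held 0.123%.

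Neither family passed the authors' test for a change with arsenite. The authors' deposited table, made with DESeq, has no entry of 1213 (0%) with an adjusted p under 0.05, while 24 entries (1.98%) are under 0.05 before adjustment. In the authors' deposited table the log2 fold change was -0.07 for miR-27a-3p (p = 0.865 by DESeq, adjusted p = 1) and 0.15 for miR-27b-3p (p = 0.503, adjusted p = 1). For miR-23a-3p it was 0.15 (p = 0.498 by DESeq, adjusted p = 1) and for miR-23b-3p it was -0.0076 (p = 0.957, adjusted p = 1), again from the authors' deposited table. The family sums in the authors' deposited table had log2 ratios of -0.04 for miR-27 and 0.04 for miR-23. Their cluster partner miR-24-3p went from 13024 in untreated to 9742 in treated cells in the authors' deposited table, a log2 value of -0.42 (p = 0.309 by DESeq, adjusted p = 1). Among the opposite strands in the authors' deposited table, miR-27b-5p had means of 220 and 295, and miR-27a-5p only 1.80 and 0.63. miR-23a-5p was listed at 0 in untreated and at 10.9 in treated cells in the authors' deposited table (p = 0.0297 by DESeq, adjusted p = 1).

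At the level of target peaks, most members had a higher normalized Ago2 signal with arsenite. The peak values are the authors' log ratio of normalized CLIP abundance, arsenite over untreated, and their log average over both treatments. The log base and the normalizer are not stated, so no folds are given. The log ratios were not centred on 0, and 70.3% of all peaks lay above 0. Among miR-27 peaks, 187 of 224 lay above 0, or 83.5% (Wilson 95% interval over peaks 78.1 to 87.8%). The miR-27 median was 1.20 (95% order-statistic interval 1.03 to 1.35), with quartiles of 0.37 and 1.84 and a range of -1.71 to 3.84. Among miR-23 peaks, 159 of 196 lay above 0, or 81.1% (75.1 to 86.0%). Their median was 0.92 (0.71 to 1.11), with quartiles of 0.25 and 1.83 and a range of -2.21 to 3.60. Both families together had 342 of 416 peaks above 0 (82.2%) and a median of 1.06 (0.92 to 1.25). These intervals count peaks, not replicates, and are too narrow because 42 of the 358 genes had more than 1 member peak and 30 member peaks overlapped another.

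Of the 16460 peaks with no listed seed 66.2% lay above 0, and their median was 0.48. Against these, the miR-27 median was higher by 0.72 and the miR-23 median by 0.44. With 1 peak per gene on both sides, that difference was 0.50 for miR-27 but only 0.10 for miR-23. The family medians were then 1.26 and 0.86, so the fall lay mainly in a higher median of the seedless peaks. The 7165 peaks that matched other listed families only had a median of 1.06, the same as both families together. Ranked by median, miR-27 was number 20 and miR-23 number 25 of the 50 listed families. A log ratio of at least 1 was found at 129 miR-27 peaks (57.6%) and 90 miR-23 peaks (45.9%), where 39.1% of all peaks reached it. At the low end, 7 miR-27 peaks (3.12%) and 9 miR-23 peaks (4.59%) had -1 or less, where 7.43% of all peaks did.

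**Figure D1:**
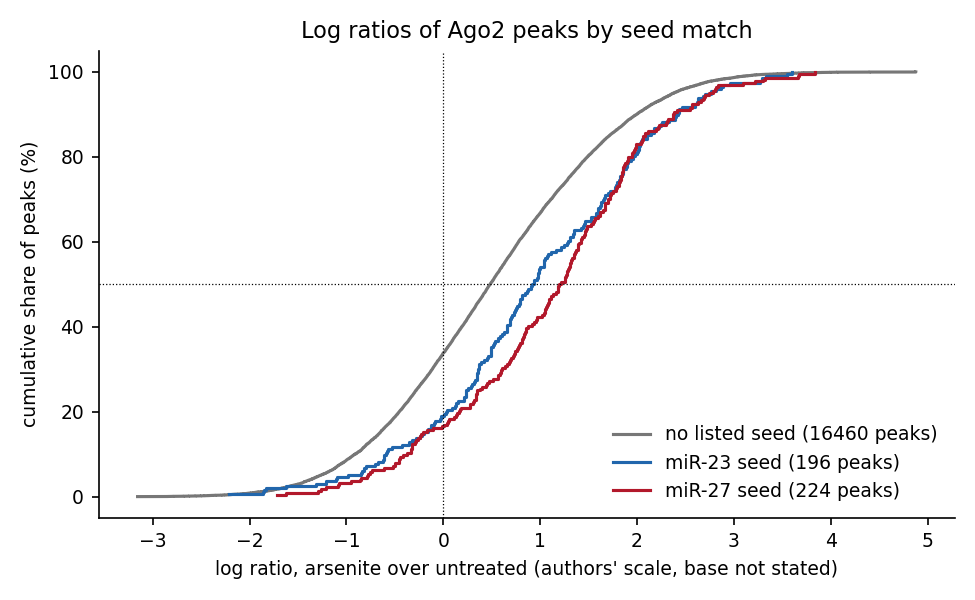
Cumulative share of peaks (vertical axis, percent) against the log ratio of arsenite over untreated Ago2 signal (horizontal axis, authors' scale), for the 224 miR-27 peaks, the 196 miR-23 peaks and the 16460 peaks with no listed seed. Dotted lines mark a log ratio of 0 and the median; the miR-27 and miR-23 curves cross the median line at 1.20 and 0.92, to the right of the curve without a seed at 0.48, and run together above a log ratio of about 2.

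The families had like median values in 3'UTRs and lay farther apart in coding sequence. In 3'UTRs, 151 miR-27 peaks had a median of 1.20 and 136 miR-23 peaks a median of 0.99. Of these, 127 miR-27 peaks (84.1%) and 121 miR-23 peaks (89.0%) lay above 0, against 76.2% of all 3'UTR peaks. In coding sequence (CDS), 63 miR-27 peaks had a median of 1.35 with 55 above 0 (87.3%), and 47 miR-23 peaks a median of 0.71 with 33 above 0 (70.2%). The background in CDS was 68.4% above 0, so the miR-23 share there was near that of all CDS peaks. Peaks without a listed seed had medians of 0.68 in 3'UTRs and 0.45 in CDS. Both families lay mostly in 3'UTRs, with 67.4% of miR-27 and 69.4% of miR-23 peaks there, against 45.8% of peaks without a listed seed and 61.8% of peaks matching only other families. Whether the 2 families differ in CDS was not tested, since no replicate values were at hand.

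**Figure D2:**
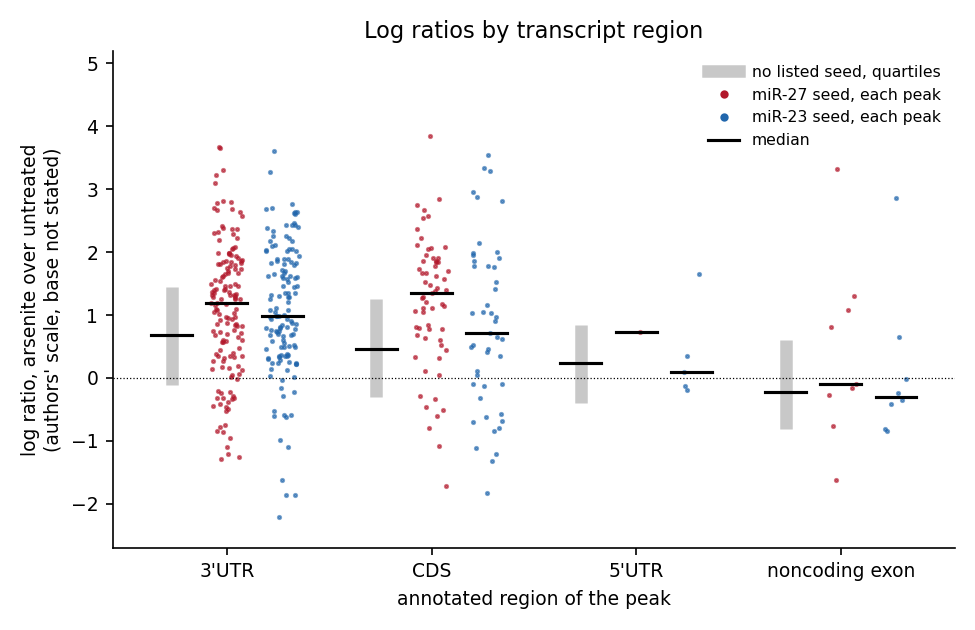
Log ratio (vertical axis, authors' scale) of each miR-27 peak (red points) and miR-23 peak (blue points) by annotated region, beside the quartiles of peaks without a listed seed (grey bars); black lines are medians, and sideways spread within a column is random. The red and blue medians lie at 1.20 and 0.99 in 3'UTRs, at 1.35 and 0.71 in CDS, and below 0 in noncoding exons.

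Outside mRNA bodies the members were few. Of 9 miR-27 peaks in noncoding exons 4 lay above 0, and of 8 miR-23 peaks 2 did, where 42.6% of all such peaks lay above 0. SNORD36B, a small nucleolar RNA that guides ribose methylation, had 3.32 at its only peak, which lists the miR-27 seed. RNU12, the U12 RNA of the minor spliceosome, had 2.87 at a peak with the miR-23 seed. The only other RNU12 peak, with no listed seed, was higher, at 3.51. The nuclear lincRNA MALAT1 had -0.84 and -0.82 at its 2 miR-23 peaks, beside a median of -0.81 over all its 105 peaks. NEAT1, which scaffolds paraspeckles, had -0.17 at its miR-27 peak and a median of -0.06 over 55 peaks. XIST carried 7 member peaks, of which 1 lay above 0, and the median over all its 309 peaks was -0.42. In MALAT1 and NEAT1 the members lay close to the median of their transcript. Only 6 member peaks lay in 5'UTRs, with a median of 0.22, and 4 of them lay above 0, against 60.8% of all 5'UTR peaks.

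Within the same gene and region the difference was smaller, though it covers fewer peaks and is a median of paired differences. In 136 pairs of a gene and a region with both a miR-27 peak and a peak with no listed seed, the median difference was 0.31 (order-statistic interval over pairs -0.03 to 0.48), and the miR-27 peak was higher in 77 of them. In 113 such pairs the miR-23 difference was 0.041 (-0.17 to 0.39), with the seed peak higher in 58. Both intervals include 0. Over the same pairs, the medians with and without the seed were 1.06 and 0.56 for miR-27, and 0.79 and 0.44 for miR-23. For peaks with other listed families only, the difference was 0.25 (0.20 to 0.31) over 2572 pairs, 1560 of them higher. Within 3'UTRs the differences were 0.31 over 94 miR-27 pairs and 0.20 over 84 miR-23 pairs, and within CDS they were 0.44 over 36 pairs and 0.0075 over 24 pairs. When the seedless peak of the highest log average stood for the gene, the miR-27 difference was 0.16 and the miR-23 difference turned to -0.069. With the lowest 25% of log averages left out, the miR-27 difference was 0.071 over 92 pairs and the miR-23 difference 0.23 over 72 pairs.

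**Figure D3:**
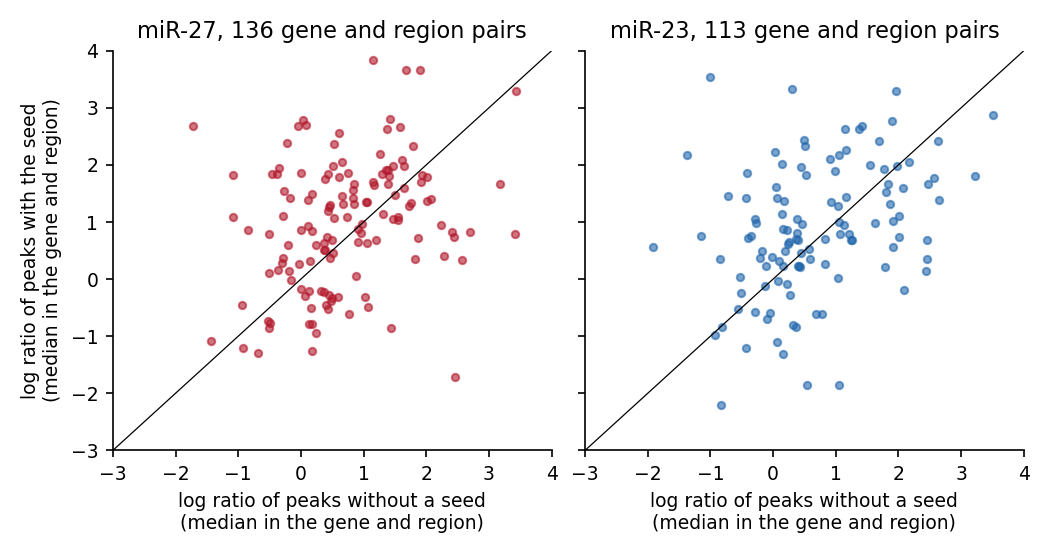
Median log ratio of peaks with the seed (vertical axis) against that of peaks with no listed seed in the same gene and region (horizontal axis), 1 point per gene and region, with the line of equality. Of the 136 miR-27 points 77 lie above the line, and of the 113 miR-23 points 58 do.

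The log average did not order the values. Its normalizer is not stated, so it cannot be read as signal height. With all log averages cut into 4 bins of equal size, from lowest to highest, miR-27 peaks had medians of 1.06, 1.38, 1.09 and 0.83 and miR-23 peaks had 0.75, 0.99, 1.01 and 0.79. Peaks with no listed seed had 0.49, 0.66, 0.46 and 0.33 in the same bins. Each family was above the seedless peaks in each of the 4 bins.

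The highest miR-27 peaks lay in SNRPB, HOXA10 and LBR. All had log ratios above the median of their gene, which picking the highest peaks favours by itself. Peaks were ranked with the lowest 25% of log averages left out and a single peak kept per gene, and coordinates are those of the authors on hg19. SNRPB, a core protein of the spliceosomal snRNPs, had 3.84 in its CDS (chr20:2448254-2448316), while its 4 peaks with no seed had a median of 0.83. HOXA10, a homeobox transcription factor, had 3.67 in its 3'UTR (chr7:27210471-27210549), and LBR, the lamin B receptor of the inner nuclear membrane, 3.66 in its 3'UTR (chr1:225590697-225590725). The median over all peaks was 1.91 for HOXA10 (10 peaks) and 1.68 for LBR (17 peaks). ZNF800, a zinc finger protein, had 3.30 at a peak that also lists miR-19 and miR-130/301. PTPN3, a tyrosine phosphatase, had 3.09 at a peak that also lists miR-338. The HOXA10 and LBR peaks also list miR-340 and miR-101. MASTL, the Greatwall kinase that keeps PP2A inhibited in mitosis, had 2.84 in its CDS (chr10:27459481-27459519), and PPP1CA, a catalytic subunit of protein phosphatase 1, had 2.81 in its 3'UTR (chr11:67165794-67165853). The only seedless peak of PPP1CA had -0.03.

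The lowest miR-27 peaks lay partly in genes that were low as a whole and partly in genes that were not. MIER2, a corepressor protein, had -1.71 in its CDS (chr19:325634-325665), although its 4 seedless peaks had a median of 0.88. TICRR, which helps to start DNA replication, had -1.26 against a median of 0.18 over its 5 peaks. In TUB (-1.29), NAT8L (-1.21) and SETD4 (-1.09), the medians over all peaks of the gene were also below 0. They were -0.54 over 14 peaks, -0.98 over 44 peaks and -1.27 over 2 peaks. The SETD4 median thus rests on its miR-27 peak and 1 seedless peak. The NAT8L peak also lists miR-101 and miR-15/16. WEE1, the kinase that restrains CDK1 before mitosis, had -0.95 at its miR-27 peak and a median of -0.09 over 28 peaks. The miR-27 peaks of highest log average lay in SEMA7A, a membrane-anchored semaphorin, SOWAHA and C19orf24, with log ratios of 0.96, 0.56 and 1.81. The SOWAHA peak also lists miR-101 and miR-181, and the C19orf24 peak miR-185.

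Zinc finger genes held 4 of the 8 highest miR-23 peaks, ranked like those of miR-27 without the lowest 25% of log averages. ZNF107 had 3.60 in its 3'UTR (chr7:64169885-64169925), ZNF273 had 3.55 in its CDS (chr7:64388472-64388509), ZNF91 had 3.27 and ZNF92 had 2.81 in its CDS (chr7:64864452-64864486). The other peak of ZNF273, without a seed, lay below 0, and ZNF91 had no other peak. AKAP10, an anchor protein for protein kinase A, had 3.30 in its CDS (chr17:19861436-19861512), at a peak that also lists miR-15/16 and miR-185. SSR3, a subunit of the translocon-associated protein complex of the endoplasmic reticulum, had 2.96, and FAM222B had 2.88 at a peak that also lists let-7. By the same rule, the lowest were KLF10, a TGF-beta-induced transcription factor, with -1.86, and GPCPD1, a glycerophosphocholine phosphodiesterase, with -1.62. Next were TMEM91 with -1.11, MARCKSL1, an actin-binding protein, with -1.10, MAFK, a small Maf partner of NFE2L2, with -0.98, and ZNF428 with -0.80. The KLF10 peak also lists miR-26, and the MARCKSL1 peak miR-186-3p. KLF10 and GPCPD1 had seedless medians of 1.06 over 2 peaks and 0.62 at 1 peak, well above these values. In MAFK the 11 seedless peaks had a median of -0.84. LRFN4, NR6A1 and GPSM1 had the miR-23 peaks of highest log average, with log ratios of -0.12, 2.10 and 0.75. The NR6A1 peak also lists miR-33. The LRFN4 peak has both values in common with the only other peak of its gene.

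**Figure D4:**
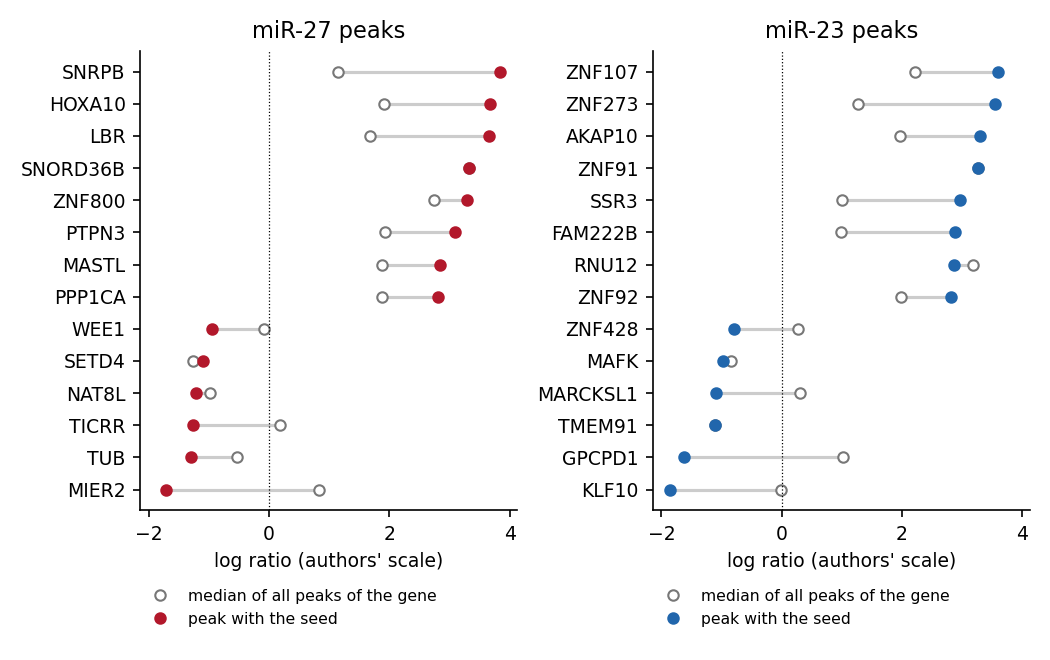
Log ratio (horizontal axis, authors' scale) of the 8 highest and 6 lowest miR-27 peaks (red) and miR-23 peaks (blue), 1 per gene and without the lowest 25% of log averages, with the median over all peaks of the gene as open circles. A gene with 1 peak shows a single point. SNRPB at 3.84 and MIER2 at -1.71 lie far from their gene medians of 1.15 and 0.83. MAFK lies close to its gene median, as does SETD4, which has only 2 peaks.

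The weight of zinc finger genes in the miR-23 set was looked at after these values had been seen, and it is a description only. Genes whose symbol is ZNF and a number encode mostly C2H2 zinc finger proteins, a large family with repeated, closely related coding sequences. They held 24 of the 196 miR-23 peaks (12.2%), in 16 genes, but 5 of the 224 miR-27 peaks (2.23%) and 2.23% of all peaks. In CDS they held 11 of 47 miR-23 peaks (23.4%), against 3 of 63 miR-27 peaks (4.76%) and 2.28% of all CDS peaks. In 3'UTRs they held 12 of 136 miR-23 peaks (8.82%), against 2 of 151 miR-27 peaks (1.32%) and 2.40% of all 3'UTR peaks. The miR-181 family, whose seed site overlaps that of miR-23, had a like share in CDS, 15 of 65 peaks (23.1%). In 3'UTRs its share was 4 of 162 peaks (2.47%), near that of all 3'UTR peaks. On chromosome 7, 5 of these genes (ZNF107, ZNF138, ZNF273, ZNF680 and ZNF92) carried 10 of the 24 peaks. ZNF107 alone had 5 miR-23 peaks among its 6 peaks, with log ratios of 1.79, 2.03, 2.47, 2.41 and 3.60. Those at 1.79, 2.03 and 2.47 were in the lowest 25% of log averages. The 24 zinc finger peaks had a median of 1.68 with 19 above 0, and the other 172 miR-23 peaks a median of 0.85. The 12 in 3'UTRs all lay above 0 (median 1.91), and of the 11 in CDS 7 did (median 1.04). Not all were high: ZNF292 had -1.21, and the CDS and 5'UTR peaks of ZNF711 -0.84 and -0.20. Reads from near-identical paralogs may be shared among these genes, and how the authors counted such reads is not given in the sources used here.

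Other listed seeds were found in 81 miR-27 peaks and 82 miR-23 peaks, and the most frequent partner was miR-101 for miR-27 and miR-181 for miR-23. The miR-101 seed was also listed in 16 miR-27 peaks (7.14%), where 0.549% of all peaks list it, and the miR-181 seed in 28 miR-23 peaks (14.3%), where 1.01% of all peaks list it. The sequences of both partners, shown for the letters their sites share with those of miR-27 and miR-23, again have the seed in capitals.
hsa-miR-101-3p: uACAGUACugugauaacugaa
hsa-miR-181a-5p: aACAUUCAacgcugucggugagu
The miR-101 site GUACUGU ends in the 5 bases with which the miR-27 site begins, so that the 9-base run GUACUGUGA holds both. In the same way the miR-181 site UGAAUGU and the miR-23 site join in UGAAUGUGA with 5 shared bases. Of 44 other families with a RefSeq sequence, these were the only ones to share as many as 5 bases with the miR-27 or the miR-23 site, end to start. The miR-181 seed, with 3 shared bases, was the next most frequent partner of miR-27, in 9 peaks (4.02%). Families sharing no base had up to 3.57% of miR-27 peaks and up to 3.06% of miR-23 peaks in common. Whether the paired matches of a peak lie on the same bases was not examined, since the table gives no site positions.

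**Figure D5:**
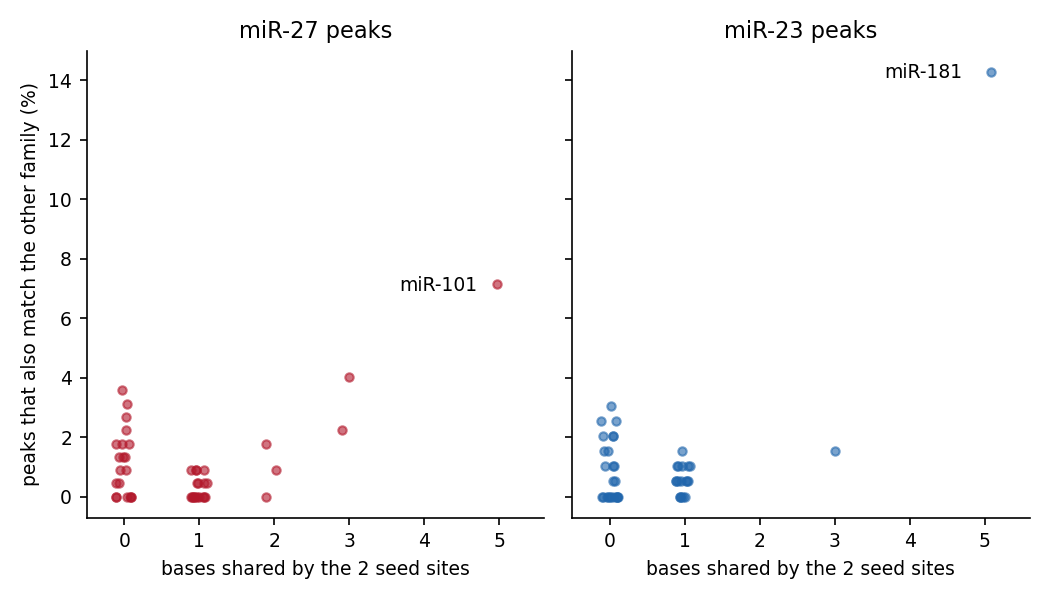
Share of miR-27 peaks (left) or miR-23 peaks (right) that also match another listed family (vertical axis, percent) against the number of bases, end to start, that the seed sites of both families share (horizontal axis), 1 point per family with small random sideways spread. miR-101 at 7.14% and miR-181 at 14.3% are the points with 5 shared bases.

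Peaks with such a partner seed had values near those of the rest of the family. The 16 peaks with miR-27 and miR-101 seeds had a median of 1.35 with 15 above 0, the exception being NAT8L, and the other 208 miR-27 peaks had 1.19. Peaks with the miR-101 seed and no miR-27 seed had a median of 1.52 over 116 peaks. Among the double matches LBR had 3.66 and ROR1, a receptor tyrosine kinase-like protein of Wnt signalling, 2.31. The 28 peaks with miR-23 and miR-181 seeds had a median of 1.01 with 25 above 0, and the other 168 miR-23 peaks had 0.89. Peaks with the miR-181 seed and no miR-23 seed had 1.03 over 214 peaks. Without any other listed family, 143 miR-27 peaks had a median of 1.18 and 114 miR-23 peaks one of 0.81.

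The miR-27 and miR-23 seeds met in 1 peak in 4 genes, all with log ratios above 0. TNPO1, a nuclear import receptor, had 2.63, ATG3, an enzyme of autophagosome formation, 1.86, TFRC, the transferrin receptor, 1.52 and PON2, a lactonase, 0.35. The log averages of TNPO1 and TFRC were low, at -6.49 and -7.43, beside a median of -5.28 over all members. Altogether 22 genes had peaks of both families. In LBR the miR-23 peak had 2.42, and in FNIP1, a folliculin partner, the miR-27 and miR-23 peaks had 2.08 and 2.05. SRSF1, a splicing factor, had 0.85 at its miR-27 peak and -2.21 at its miR-23 peak, the lowest of all members, beside a median of -0.75 over 30 peaks. That miR-23 peak was not ranked above, because it is in the lowest 25% of log averages. TICRR went the other way round, with -1.26 at the miR-27 peak and 0.50 at the miR-23 peak. TNRC6A, the GW182 protein that Argonaute recruits for repression, had 3 miR-23 peaks in its 3'UTR, with 1.21, 2.43 and 2.17, while its 15 seedless peaks had a median of 0.92. The TNRC6A peak at 2.43 also lists miR-30, and that at 1.21 lists miR-26 and miR-374. HNRNPU, a nuclear scaffold RNA-binding protein, had 4 member peaks between 0.52 and 1.83, above the median of 0.38 over its 49 peaks. All 4 were in the lowest 25% of log averages, at -6.89 or less.

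Among the textbook targets, SPRY2, NFE2L2, RUNX1 and WEE1 carried a miR-27 peak. Of 31 genes listed as reported miR-27 targets 15 had any Ago2 peak, and 4 of these had a miR-27 peak, where 3.47% of all genes in the table had one. SPRY2, the RAS pathway inhibitor, had 2.30 at its only peak, in the 3'UTR (chr13:80910499-80910523), and its log average of -2.12 was above the miR-27 median of -5.17. NFE2L2, the transcription factor of the oxidative stress response, had 1.31 and RUNX1, a blood cell transcription factor, 1.07, each at its only peak, and WEE1 had -0.95. Of 31 genes listed as reported miR-23 targets, 18 had a peak and none had a miR-23 peak, where 2.78% of all genes had one, so a count of 0 among 18 is near the background. SPRY2 stood on both target lists, and its miR-27 peak was the only member peak among the reported miR-23 targets. The median over all peaks of the reported miR-27 targets was 0.32 and that of the reported miR-23 targets 1.38, beside 0.65 over all peaks.

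Across all 11 lists, the reported targets included, 24 of 150 genes in the table (16%) had a member peak, where 5.88% of all genes had one. List genes also had more peaks of any kind, and 28 of their 920 peaks were members (3.04%), against 1.73% of all peaks. Of these 28 peaks 24 lay above 0, with a median of 1.27. The counts of single lists below are small, and they can be read against the 5.88% of all genes. In the receptor tyrosine kinase and RAS list, 4 of 19 genes had one: NF1, the RAS GTPase-activating protein, with 3.22, SPRY2, MAP2K4, a kinase upstream of JNK, with 1.47, and DUSP5, an ERK phosphatase, with 0.46 at a miR-23 peak. In the PI3K and AKT list 2 of 16 genes did, PHLPP2, a phosphatase of AKT, with 2.07 and AKT2 with 0.60. In the apoptosis and NF-kB list 3 of 12 genes did, all 3 with miR-27 peaks and none with a miR-23 peak. MCL1, a survival factor, had 1.46 and 1.25 at overlapping miR-27 peaks, BAX, a pore-forming death effector, had 1.99, and BCL2L11, which encodes BIM, had -0.29. In the TGF-beta list SMURF2, a ubiquitin ligase for SMAD proteins and receptors, had 1.33 and ACVR1, a type I receptor, had -0.86, out of 14 genes in the table.

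In the Wnt list 2 of 15 genes had member peaks. DVL2, a scaffold downstream of Frizzled receptors, had 2.39 at a miR-23 peak but 0.44 and 0.48 at its overlapping miR-27 peaks, and the receptor FZD3 had 1.09. The 8 seedless peaks of DVL2, over all regions, had a median of 1.46. Lipid genes with member peaks included OSBPL8, a lipid transfer protein, with 1.72 at a miR-23 peak, and AGPAT3, an acyltransferase of phospholipid synthesis, with 1.55 at a miR-27 peak. SLC38A2, a glutamine transporter, was the only gene of the 9 in the glutamine and mitochondrial list with members. Its overlapping miR-23 peaks had 1.29 and 0.99. Of 24 chromatin regulators 3 had a member: MLL, a histone H3K4 methyltransferase, with 1.83, CHD7, a remodeler, with 1.60 and MLL2 with 0.23. Seedless peaks of the same gene and region had lower medians than the members in AGPAT3 (0.84) and SLC38A2 (0.14). They had higher medians in FZD3 (1.54), MLL (1.93), CHD7 (2.08) and MLL2 (0.40).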

How the data were processed

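Ago2 CLIP of 293S cells gave 1 table of peaks and 1 table of miRNAs, each over 4 replicates per treatment, and 0 columns hold values of single samples. Per the submitters' processing notes, Bowtie 0.12.8, TopHat, DESeq and the build hg19 were used. How peaks were called, filtered and normalized is not stated in those sources. The deposited log average and log ratio of each peak were treated as scores on a log scale of unstated base. Peak positions are as the authors give them, with an unstated base for the starts (0 or 1). The miRNA table, with miRBase 18 names, holds the authors' mean signal per treatment (counts divided by size factors), the ratio (fold) of the means, its log2 value, and DESeq p-values, all as deposited. In the peak table, 563 peaks, 2 of them members, have both values in common with another peak.

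The choice of these 2 families and of the gene lists was made with earlier results of these data known, although the rule for members reads only the listed seeds. Members were found by splitting the listed seeds. Medians, shares above 0, Wilson intervals and order-statistic intervals (95%) over peaks were computed with Python 3.11.15, pandas 2.3.3 and SciPy 1.17.1, tested on simulated data, and drawn with matplotlib 3.10.9. For the within-gene difference, medians of peaks with the seed and with no listed seed were paired by gene and region. Named peaks were, for each family, the 8 highest and 6 lowest log ratios in the upper 75% of log averages of all peaks (1 per gene), the 3 highest log averages, genes with at least 3 peaks of the family, peaks with both seeds, and up to 4 genes of each list. Noncoding, 5'UTR, zinc finger, double-match and both-family genes beyond that rule (among them MALAT1, NEAT1, ROR1, FNIP1, SRSF1 and HNRNPU) were named after their values were seen. Some genes of the lists are not reported here.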

Additional observations from a re-analysis of the deposited data

How the results depend on the processing

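No paired analysis was possible because the tables carry no replicate columns, and for the same reason no replicate could be left out. The 12 results (4 for each family and for both together) were recomputed under 99 alternatives in all. Leaving out zinc finger genes or noncoding exons, and CDS alone for the within-gene difference, were chosen after seeing the data. Of the 99 values, 87 stayed within the interval of the main value, 10 moved outside it and 2 changed sign. The medians of both families stayed within their intervals under each alternative, at 1.05 to 1.35 for miR-27 and 0.71 to 0.99 for miR-23. With 1 peak per gene, the difference from peaks with no listed seed was 0.50 for miR-27, 0.10 for miR-23 and 0.34 together. The miR-27 and miR-23 medians were then 1.26 and 0.86, so these differences fell mainly through a higher seedless median. In 3'UTRs alone it was 0.52 for miR-27 and 0.42 together, and in CDS alone 0.90 for miR-27. The share of miR-23 peaks above 0 was 86.2% in the upper 50% of log averages, 89.0% in 3'UTRs and 70.2% in CDS, and the share together was 86.3% in 3'UTRs. The within-gene difference of miR-23 was -0.048 for peaks matching no other listed family and -0.069 against the seedless peak of the highest log average. For the changes other than those set by a region, the cause was not tested. Depth is unknown, so no limit from counting can be given.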
